A study of Arundo donax with 12 samples.

Results

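Among the 126668 unigenes assembled from giant reed (Arundo donax, a perennial bioenergy grass, here the G10 ecotype), 8 are transcription factors of the basic helix-loop-helix (bHLH), basic leucine zipper (bZIP) and MYB families that the study placed in its table of main processes. They were looked up by unigene identifier, and all 8 of 8 were found in the count table. 3 have a helix-loop-helix name, 2 are bZIP proteins and 3 are MYB proteins. The 12 libraries came from whole roots and leaves of plants grown in pots of clay soil, each started from a single stem node, with 3 libraries in every group. Cd_R and Cd_L are roots and leaves of plants given 4 mg/kg of cadmium nitrate, and CK_R and CK_L are roots and leaves of control plants given ammonium nitrate, which balanced the nitrogen. All plants were planted in early May and collected in late July, so all 4 groups describe one late harvest of long exposure and no early response. In bulk tissue of this kind, fewer cells of a type and less RNA per cell cannot be told apart.

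All 3 families act by binding DNA. bHLH and bZIP proteins bind as dimers, bHLH through a basic region next to a helix-loop-helix and bZIP through one next to a leucine zipper, whereas plant MYB proteins of the R2R3 type bind through repeated helical domains. In plants these families control root hair growth, organ and meristem identity, stomatal lineages, flavonoid synthesis and responses to hormones and pathogens. The roles given below are those of the Arabidopsis thaliana matches named in the study, and none was measured in giant reed.

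The table from which the 8 unigenes come was filled with unigenes that were called different between Cd_R and Cd_L and not between CK_R and CK_L in these same 12 libraries. By its methods, the study also required a larger log2 difference there than its limit for calls, and a match to Arabidopsis. Wide differences under cadmium, and wider ones than in controls, are thus partly built in. The root and leaf differences are therefore given as a description, with no test. The comparisons of cadmium with control in each organ use the same libraries, so they are not wholly free of that choice either.

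The libraries held between 22157170 and 26033492 expected counts. The first principal component over the unigenes that passed a filter on low counts carried 76.4% of the variance. It separated all 6 root from all 6 leaf libraries, as labelled. On the second component CK_R replicate 3 and Cd_R replicate 1 stood apart, at 171 for Cd_R replicate 1 and 147 for CK_R replicate 3, with the other 4 libraries from roots at -119 to -41.4. These 2 libraries also had the most unigenes with a count, 105247 in Cd_R replicate 1 and 100351 in CK_R replicate 3, against 81443 to 87750 in the other root libraries. The summed level of 21 protein-biosynthesis unigenes whose best match lies outside land plants was 35.7, 9.31 and 9.78 CPM (counts scaled to a total of 1000000 per library) in Cd_R replicates 1 to 3 and 4.32, 12.2 and 12.8 CPM in CK_R replicates 1 to 3. In leaves it was 1.75 to 2.44 CPM in Cd_L and 1.53 to 3.82 CPM in CK_L. All 21 had a count in every Cd_R library, 9 to 21 had one in the CK_R libraries, and only 2 had one in each leaf library. These 21 came from the study's list of unigenes called different between Cd_R and Cd_L and not between CK_R and CK_L. Their differences between the groups were thus partly fixed by that choice and are no independent measure of foreign RNA. Fitted values that use root libraries are also given without Cd_R replicate 1 and CK_R replicate 3, where a fit could be had. The part of such foreign transcripts in them was not tested.

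The 8 transcription factors were weakly expressed. Of their 96 values (8 unigenes in 12 libraries), 54 lay under 1 CPM, 14 were 0 and only 9 exceeded 100 counts, with a median of 18.5 counts and a maximum of 924. CPM values here are scaled for composition by the trimmed mean of M values (TMM). The cyclin dependent kinase unigene that the study used as its reference for quantitative PCR served as a check of this scaling, and it was level between treatments in each organ, at 23.4 ± 1.29 CPM in Cd_R, 24.2 ± 0.389 CPM in CK_R, 30.4 ± 2.92 CPM in Cd_L and 29.6 ± 4.43 CPM in CK_L (SD, n = 3 each). Its root and leaf log2 difference was -0.36 under cadmium and -0.25 in controls, and turned to 0.18 and 0.25 when library totals were used as the scale. Unigene lengths are not used here, so levels are compared between libraries and not between unigenes.

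**Figure D1:**
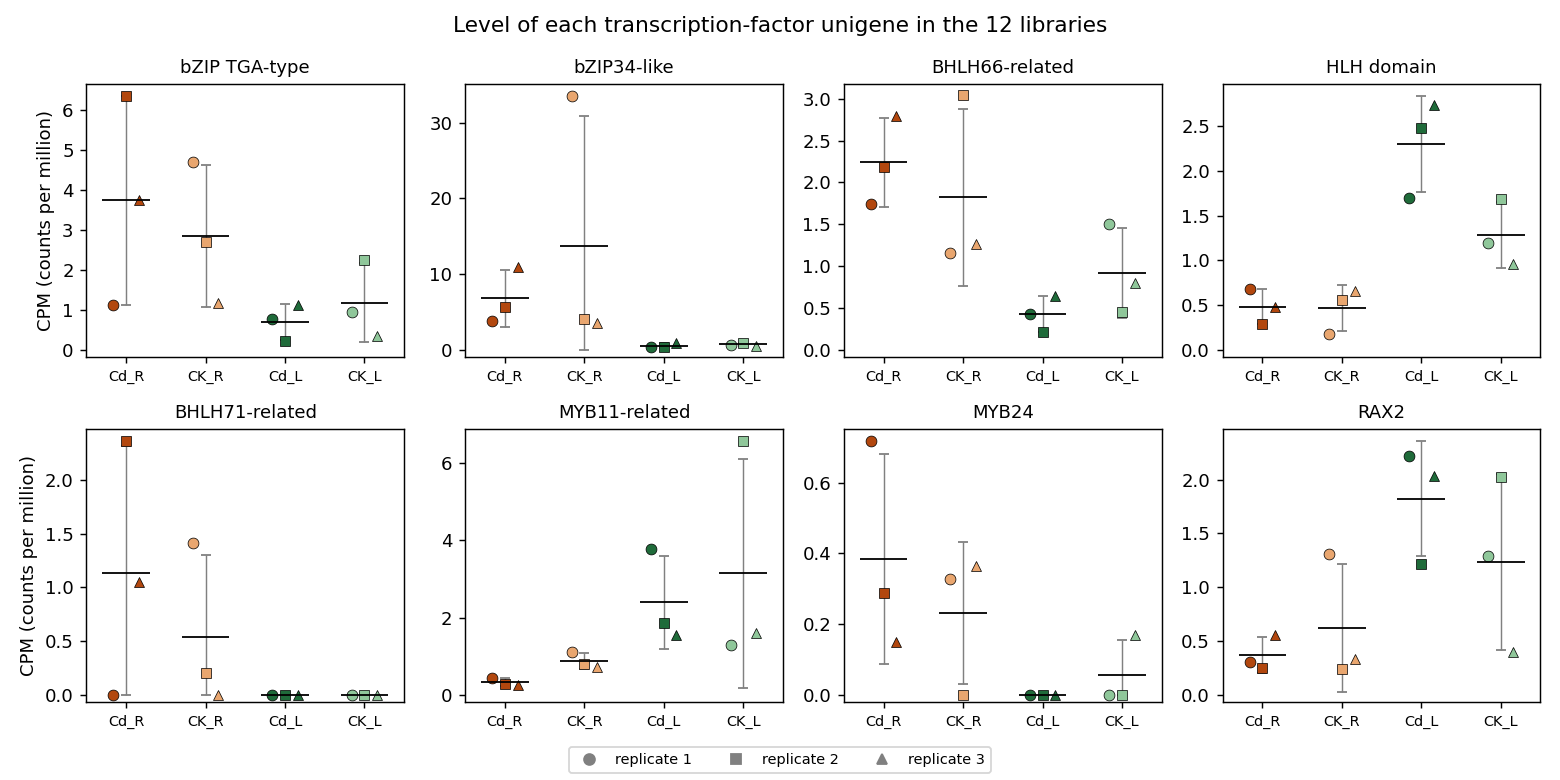
Level in CPM (linear y axis, its own range in each panel) of the 8 unigenes in the 4 groups, with 1 point per library, the marker giving the replicate number, a black line for the mean and a grey bar for the SD, drawn no lower than 0. The bZIP and BHLH66-related panels are higher in roots, the HLH, MYB11-related and RAX2 panels are higher in leaves, and BHLH71-related is at 0 in all 6 leaf libraries.

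The 8 unigenes divided into 5 with a higher mean in roots and 3 with a higher mean in leaves. Both bZIP unigenes, the BHLH66-related and BHLH71-related unigenes and MYB24 were on the root side, whereas the HLH unigene, the MYB11-related unigene and RAX2 were on the leaf side. This side was the same in cadmium-treated and in control plants for all 8 of 8 unigenes. For 3 of them, the bZIP34-like, HLH and MYB11-related unigenes, the 6 root libraries did not overlap the 6 leaf libraries at all. The share of all unigenes with such a split was not computed, so nothing is read from this count.

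The first bZIP unigene, Cluster-14691.82651, matches AT1G68640.1, which encodes PERIANTHIA, a TGA-class bZIP that sets floral organ number in Arabidopsis. It is called the TGA-type bZIP here. Its level was 1.12, 6.34 and 3.73 CPM in Cd_R and 4.68, 2.68 and 1.16 CPM in CK_R, against 0.755, 0.210 and 1.12 CPM in Cd_L and 0.943, 2.25 and 0.340 CPM in CK_L. Its 2 lowest root values were those of Cd_R replicate 1 and CK_R replicate 3, the libraries that stood apart. The root level was 5.46-fold the leaf level under cadmium (log2 fold change 2.45, SE 0.77) and 2.49-fold in controls (1.31, SE 0.74). The order of the group means was Cd_R, CK_R, CK_L, Cd_L, and neighbouring groups in that order overlapped.

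The other bZIP unigene, Cluster-14691.13800, matches AT2G42380.2, the gene of bZIP34, which acts in pollen wall and lipid metabolism in Arabidopsis. This bZIP34-like unigene had the widest root preference of the 6 unigenes that could be fitted, in both treatments. It stood at 3.75, 5.70 and 11.0 CPM in Cd_R and 33.5, 4.12 and 3.59 CPM in CK_R, against 0.330, 0.337 and 0.909 CPM in Cd_L and 0.685, 0.899 and 0.510 CPM in CK_L. Every root library lay above every leaf library. Here the control difference was the wider one: root exceeded leaf 13.2-fold under cadmium (log2 3.72, SE 0.59) and 19.9-fold in controls (log2 4.32, SE 0.97). CK_R replicate 1 carried 924 counts of this unigene and its group spanned 9.34-fold, and without that library the control log2 difference was 2.51. Its 2 lowest root values were again those of CK_R replicate 3 and Cd_R replicate 1.

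The 3 helix-loop-helix unigenes did not share a side. Cluster-14691.57513, annotated BHLH66-related, matches AT4G30980.1, which encodes LRL2, a bHLH that promotes root hair growth in Arabidopsis. Its level was 1.74, 2.19 and 2.80 CPM in Cd_R and 1.16, 3.04 and 1.26 CPM in CK_R, against 0.425, 0.210 and 0.642 CPM in Cd_L and 1.50, 0.450 and 0.793 CPM in CK_L. All Cd_R libraries lay above all Cd_L libraries, whereas CK_R and CK_L overlapped. Root exceeded leaf 5.35-fold under cadmium (log2 2.42, SE 0.47) and 2.01-fold in controls (log2 1.01, SE 0.62).

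Cluster-14691.73182, annotated BHLH71-related, matches AT1G22490.1, a member of the Arabidopsis bHLH subgroup that also holds the stomatal regulators SPEECHLESS, MUTE and FAMA. In giant reed it was read in roots alone. It had 0, 66 and 28 counts in Cd_R and 39, 5 and 0 counts in CK_R, and 0 counts in all 3 Cd_L and all 3 CK_L libraries. The 2 root libraries without a count were Cd_R replicate 1 and CK_R replicate 3. Set against a floor of 3 counts over the 3 leaf libraries, which corresponds to 0.0471 CPM in Cd_L and 0.0510 CPM in CK_L, the root level was at least 23.7-fold higher than the leaf level under cadmium and at least 10.4-fold higher in controls. These bounds allow for counting error at the leaf zeros only, not in the root counts or for spread between libraries. They rest largely on 1 library each. Without Cd_R replicate 2, which held 66 of the 94 Cd_R counts, the bound was 10.6-fold under cadmium, and without CK_R replicate 1, which held 39 of the 44 CK_R counts, it was 1.78-fold in controls. Leaving out a leaf library also lowers the bound, since fewer leaf reads then stand behind the floor, to no less than 14.9-fold under cadmium and 6.29-fold in controls. Without Cd_R replicate 1 it was 36.5-fold under cadmium, and without CK_R replicate 3 it was 16.4-fold in controls.

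Cluster-14691.57184, annotated as a helix-loop-helix (HLH) domain protein, matches AT4G05170.1, an Arabidopsis bHLH gene. It was a leaf transcript, at 0.681, 0.287 and 0.485 CPM in Cd_R and 0.181, 0.560 and 0.664 CPM in CK_R, against 1.70, 2.48 and 2.73 CPM in Cd_L and 1.20, 1.69 and 0.963 CPM in CK_L. Every leaf library lay above every root library. Its 2 highest root values were those of Cd_R replicate 1 and CK_R replicate 3. The log2 difference of root and leaf was -2.22 under cadmium (SE 0.42) and -1.40 in controls (SE 0.56), that is a leaf level 4.66-fold and 2.64-fold the root level.

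2 of the 3 MYB unigenes also had a higher mean in leaves, though RAX2 overlapped between the organs in controls. Cluster-14691.61708, annotated MYB11-related, matches AT2G47460.1, the gene of MYB12, which with MYB11 and MYB111 switches on flavonol synthesis in Arabidopsis. Its level was 0.443, 0.287 and 0.261 CPM in Cd_R and 1.12, 0.800 and 0.731 CPM in CK_R, against 3.78, 1.85 and 1.55 CPM in Cd_L and 1.29, 6.57 and 1.59 CPM in CK_L. Its leaf level was 7.06-fold the root level under cadmium (log2 -2.82, SE 0.49) and 3.42-fold in controls (log2 -1.77, SE 0.67). CK_L replicate 2 was the highest library, and without it the control log2 difference was -0.70, closer to 0 than that of HLH without the same library, -1.21.

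Cluster-14691.40443, RAX2, matches AT2G36890.1, a MYB gene that acts in the start of axillary meristems in Arabidopsis. It stood at 0.307, 0.251 and 0.560 CPM in Cd_R and 1.31, 0.240 and 0.332 CPM in CK_R, against 2.22, 1.22 and 2.03 CPM in Cd_L and 1.29, 2.02 and 0.397 CPM in CK_L. Under cadmium the 2 organs did not overlap, whereas CK_R replicate 1, at 1.31 CPM, brought the control organs into overlap. The leaf level was 4.80-fold the root level under cadmium (log2 -2.26, SE 0.46) and 1.92-fold in controls (log2 -0.94, SE 0.79). Without CK_R replicate 1 the control log2 difference was -2.03, near the value under cadmium, and it was -0.45 without CK_L replicate 2 and -0.56 without CK_R replicate 2.

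Cluster-14691.15951, MYB24, matches AT5G40350.1, a jasmonate-responsive MYB gene of stamen development in Arabidopsis. Its counts were too low for the filter in every comparison. It had 0.716, 0.287 and 0.149 CPM in Cd_R and 0.326, 0 and 0.365 CPM in CK_R, against 0 CPM in all 3 Cd_L libraries and 0, 0 and 0.170 CPM in CK_L. The CK_L value came from 3 counts in replicate 3. The root level was at least 8.33-fold higher than the leaf level under cadmium, by the same floor of 3 counts. Of the 33 Cd_R counts, 21 were in Cd_R replicate 1, which stood apart, and without it the bound was 4.66-fold. Leaving out a Cd_L library gave 5.22-fold to 5.88-fold. In controls 20 counts in CK_R against 3 in CK_L gave a ratio of 4.74, with an exact 95% interval of 1.41 to 24.9 for counting error only. Without CK_R replicate 3 that ratio was 3.36 (0.837 to 19.3), an interval that includes 1. The interval also reached below 1 without CK_L replicate 1 (from 0.848) and without CK_L replicate 2 (from 0.980). The 2 libraries that stood apart held the 2 highest root values of MYB24. It was also the only 1 of the 8 with fractional expected counts, which arise when reads are shared among similar transcripts, so its level is uncertain.

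The order of the group means, from high to low, followed these sides. For the bZIP34-like unigene it was CK_R, Cd_R, CK_L, Cd_L, and only Cd_R and CK_L, among neighbours in that order, did not overlap. For BHLH66-related it was Cd_R, CK_R, CK_L, Cd_L, and for RAX2 it was Cd_L, CK_L, CK_R, Cd_R, with overlap between all neighbours in both. For HLH it was Cd_L, CK_L, Cd_R, CK_R, and only the 2 root groups overlapped. For MYB11-related it was CK_L, Cd_L, CK_R, Cd_R, and only the 2 leaf groups overlapped.

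**Figure D2:**
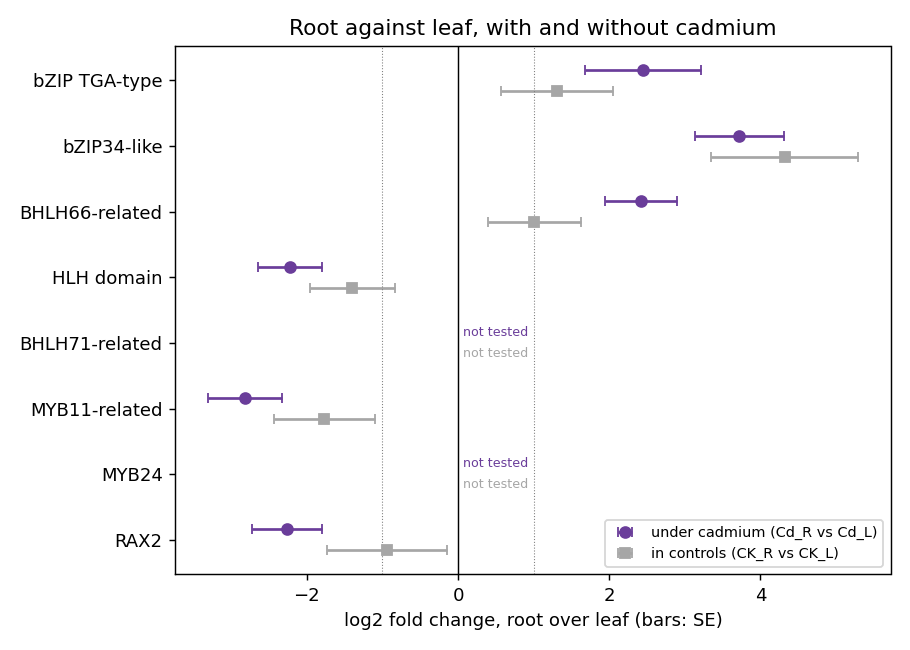
Log2 fold change of root over leaf (x axis, bars show the SE) under cadmium and in controls for each unigene, with dotted lines at a log2 change of 1 in either direction and the 2 unigenes removed by the filter on low counts marked as not tested. Each of the 6 fitted unigenes lies on the same side of 0 in both treatments. Only bZIP34-like lies further from 0 in controls, 3.72 under cadmium against 4.32.

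Without both libraries that stood apart, each of the 6 fitted unigenes stayed on its side. The root and leaf log2 differences under cadmium and in controls were then 2.94 and 1.70 for the TGA-type bZIP, 4.07 and 4.78 for bZIP34-like, and 2.62 and 1.23 for BHLH66-related. They were -2.51 and -1.72 for HLH, -3.05 and -1.63 for MYB11-related, and -2.10 and -0.62 for RAX2. With any 1 library left out, the control difference lay between 0.77 and 2.10 for the TGA-type bZIP and between 0.41 and 1.52 for BHLH66-related.

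Limits of an adjusted p of 0.05 and a log2 fold change of 1 in either direction, the limits of the study, were used for calls, from the quasi-likelihood F test of edgeR, adjusted by Benjamini-Hochberg over all unigenes that passed the filter. 6 of the 8 unigenes passed it in both root and leaf comparisons, all except BHLH71-related and MYB24. Between Cd_R and Cd_L, 3 of the 6 were called higher in root, where 23.0% of all unigenes tested were, and 3 were called lower, where 17.9% were. Of the 8, 4 had all Cd_R libraries above all Cd_L libraries (31.2% of all unigenes tested) and 3 had them below (28.3%). Among the 4, the TGA-type bZIP nearly touched, with its lowest Cd_R and highest Cd_L library both at 1.12 CPM. Between CK_R and CK_L, 1 of the 6, the bZIP34-like unigene, was called higher in root (22.3% of all) and 0 were called lower (16.8% of all). There, 1 of the 8 had all CK_R libraries above all CK_L libraries (29.0% of all) and 2 had them below (26.0%). Since the study's table was filled on these very contrasts, nothing is read from these counts. DESeq2 called 8 of the 8 between Cd_R and Cd_L, where it called 21.3% of all unigenes, and 0 of the 8 between CK_R and CK_L, where it called 21.9%.

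Whether the root and leaf difference itself changed with cadmium is asked by the interaction of tissue and treatment, which is the difference of the contrasts just given and so shares their choice. It was called for 0 of the 7 unigenes tested, where 0% of all 61242 unigenes tested were called, and 0 of the 6 with a usable estimate had an unadjusted p under 0.05 (3.17% of all had). DESeq2 also called 0 (0.0107% of all) and had 0 at an unadjusted p under 0.05 (2.03% of all). The BHLH66-related unigene had the smallest p, with a root and leaf log2 difference larger by 1.43 under cadmium (SE 0.79, 95% interval -0.31 to 3.17), with an unadjusted p = 0.0985 and an adjusted p = 1.000 in edgeR (Benjamini-Hochberg). The interaction was 1.16 for the TGA-type bZIP (95% interval -1.38 to 3.70), -0.58 for the bZIP34-like unigene (-3.24 to 2.07) and -0.79 for the HLH unigene (-2.34 to 0.75). It was -1.01 for the MYB11-related unigene (-2.93 to 0.91) and -1.30 for RAX2 (-3.49 to 0.89). Single control libraries moved several of these values. For MYB11-related the interaction was -2.15 without CK_L replicate 2, with an unadjusted p = 0.00772 and an adjusted p = 1.000 in edgeR (Benjamini-Hochberg), and for RAX2 it was -0.22 without CK_R replicate 1. With any 1 library left out it lay between 0.31 and 1.70 for the TGA-type bZIP, 0.85 and 2.01 for BHLH66-related, -1.12 and 1.23 for bZIP34-like, and -1.21 and -0.51 for HLH. For BHLH66-related the unadjusted p was 0.0261 without CK_R replicate 2 and 0.0496 without CK_L replicate 2 (adjusted p = 1.000 both times, edgeR). Without both libraries that stood apart, the interaction was 1.20 for the TGA-type bZIP, -0.75 for bZIP34-like, 1.36 for BHLH66-related, -0.82 for HLH, -1.45 for MYB11-related and -1.51 for RAX2. With all libraries, the 6 intervals include 0 and also changes of more than 1 on the log2 scale, so a difference in organ preference between treatments was not detectable at this depth and replication. No interval could be had for BHLH71-related, since all its leaf libraries were at 0. These fits treat leaf and root libraries as independent, although the design names 6 pots and the labels do not say which leaf and root library share one.

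In roots, cadmium was compared with control through Cd_R and CK_R. Of the 8 unigenes, 6 could be tested, and 0 of the 6 were called by edgeR (0% of all 55317 unigenes tested were). 1 of the 6 had an unadjusted p under 0.05, where 4.62% of all unigenes had, and 1 of the 8 had groups that did not overlap, where 9.77% had. DESeq2 called 0 of the 8 (0.159% of all), with 1 at an unadjusted p under 0.05 (3.06% of all). That 1 unigene was in each case the MYB11-related one. The median log2 fold change of the 6 was 0.16, beside -0.02 over all unigenes tested.

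The MYB11-related unigene had the most even difference between treatments in roots. All 3 Cd_R libraries, at 0.261 to 0.443 CPM, lay below all 3 CK_R libraries, at 0.731 to 1.12 CPM. Its log2 fold change was -1.42 (SE 0.43, 95% interval -2.43 to -0.40), which is a CK_R level 2.67-fold that of Cd_R, with an unadjusted p = 0.0136 and an adjusted p = 0.999 in edgeR (Benjamini-Hochberg). It therefore did not pass the threshold. Over the alternatives its adjusted p lay between 0.646 and 1.000. Its log2 fold change was -1.80 without CK_R replicate 3 and Cd_R replicate 1, and between -1.68 and -1.22 with any 1 library left out. The values rest on 28 counts in all of Cd_R against 73 in all of CK_R.

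The other unigenes overlapped between Cd_R and CK_R. The TGA-type bZIP averaged 3.73 ± 2.61 CPM in Cd_R and 2.84 ± 1.76 CPM in CK_R (SD, n = 3 each), with a log2 fold change of 0.38 (95% interval -1.32 to 2.09). The bZIP34-like unigene averaged 6.82 ± 3.76 CPM in Cd_R and 13.7 ± 17.1 CPM in CK_R (SD, n = 3 each), with a log2 fold change of -1.01 (95% interval -3.21 to 1.18). That sign rested on CK_R replicate 1: without it the value was 0.80. The BHLH66-related unigene averaged 2.24 ± 0.533 CPM in Cd_R and 1.82 ± 1.06 CPM in CK_R (SD, n = 3 each), a log2 fold change of 0.29 (95% interval -0.83 to 1.40). The HLH unigene was nearly level, at 0.484 ± 0.197 CPM in Cd_R and 0.469 ± 0.254 CPM in CK_R (SD, n = 3 each), with a log2 fold change of 0.03 (95% interval -1.43 to 1.49).

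BHLH71-related was the most erratic of the 8 in roots. With 0, 2.36 and 1.05 CPM in Cd_R and 1.41, 0.200 and 0 CPM in CK_R, its log2 fold change was 1.07 (SE 1.64, 95% interval -2.84 to 4.97). It was -0.05 without Cd_R replicate 2 and 3.48 at the other end of the range with 1 library left out. Without both CK_R replicate 3 and Cd_R replicate 1 it was 1.06. For the TGA-type bZIP that value was 0.45, for bZIP34-like -1.17, for BHLH66-related 0.25 and for HLH 0.07, so leaving the 2 libraries out turned no sign in roots.

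RAX2 and MYB24 did not pass the filter in roots. RAX2 averaged 0.372 ± 0.165 CPM in Cd_R and 0.626 ± 0.590 CPM in CK_R, and MYB24 averaged 0.384 ± 0.295 CPM in Cd_R and 0.231 ± 0.201 CPM in CK_R (SD, n = 3 each). Both overlapped between treatments. Without both libraries that stood apart RAX2 passed the filter, with a log2 fold change of -0.94, and MYB24 did not. With no filter, edgeR (Benjamini-Hochberg) gave a log2 fold change of -0.75 with an adjusted p = 0.885 for RAX2 and of 0.69 with an adjusted p = 0.957 for MYB24.

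**Figure D3:**
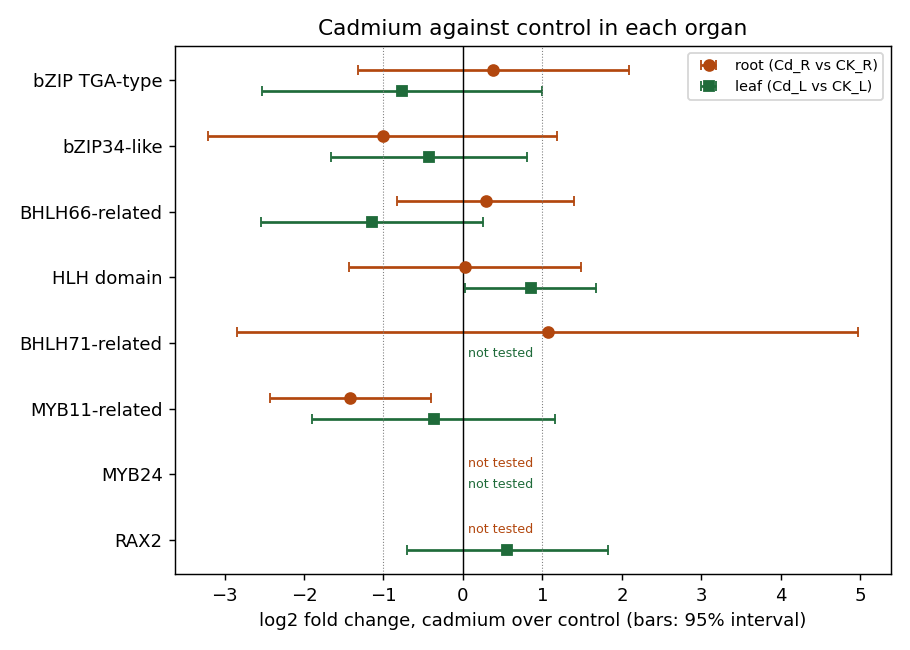
Log2 fold change of cadmium over control (x axis, bars show the 95% interval of edgeR's quasi-likelihood fit) in roots and in leaves, with dotted lines at a log2 change of 1 in either direction and unigenes removed by the filter on low counts marked as not tested. The MYB11-related interval in roots (-2.43 to -0.40) and the HLH interval in leaves (0.03 to 1.67) leave out 0, and the other 10 include it.

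In leaves, Cd_L was compared with CK_L. Of the 8 unigenes, 6 could be tested and 0 of the 6 were called by edgeR (0% of all 48194 unigenes tested were). 1 of the 6 had an unadjusted p under 0.05, where 4.25% of all unigenes had, and 1 of the 8 had groups that did not overlap, where 9.36% had. It was the HLH unigene both times. DESeq2 called 0 of the 8 (0.0784% of all), with 0 at an unadjusted p under 0.05 (2.69% of all). The median log2 fold change of the 6 was -0.40, beside -0.01 over all unigenes tested.

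The HLH unigene, preferred in leaves, stood at 1.70 to 2.73 CPM in Cd_L and 0.963 to 1.69 CPM in CK_L. The lowest Cd_L and the highest CK_L library nearly touched. The Cd_L level was 1.80-fold that of CK_L (log2 0.85, SE 0.35, 95% interval 0.03 to 1.67), with an unadjusted p = 0.0442 and an adjusted p = 1.000 in edgeR (Benjamini-Hochberg), so it did not pass the threshold. Its adjusted p lay between 0.525 and 1.00 over the alternatives, and its log2 fold change between 0.69 and 1.08 with any 1 library left out. In roots the same unigene had a value of 0.03.

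The BHLH66-related unigene averaged 0.426 ± 0.216 CPM in Cd_L and 0.914 ± 0.535 CPM in CK_L (SD, n = 3 each). Its log2 fold change was -1.14 (SE 0.60, 95% interval -2.54 to 0.25), with an unadjusted p = 0.0958 and an adjusted p = 1.000 in edgeR (Benjamini-Hochberg). CK_L replicate 2 lay within the Cd_L range, and without CK_L replicate 1, at 1.50 CPM, the log2 fold change was -0.55. The 2 bZIP unigenes were at 0.696 ± 0.459 CPM in Cd_L and 1.18 ± 0.975 CPM in CK_L for the TGA type, and at 0.525 ± 0.332 CPM in Cd_L and 0.698 ± 0.195 CPM in CK_L for bZIP34-like (SD, n = 3 each). Their log2 fold changes were -0.77 (95% interval -2.53 to 0.99) and -0.43 (-1.66 to 0.80). For the TGA type the value was 0.06 without CK_L replicate 2.

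Of the MYB unigenes in leaves, MYB11-related averaged 2.39 ± 1.21 CPM in Cd_L and 3.15 ± 2.97 CPM in CK_L, and RAX2 averaged 1.82 ± 0.531 CPM in Cd_L and 1.23 ± 0.814 CPM in CK_L (SD, n = 3 each). The log2 fold changes were -0.37 (95% interval -1.90 to 1.16) for MYB11-related and 0.56 (-0.71 to 1.83) for RAX2. The MYB11-related value was 0.75 without CK_L replicate 2, which alone held 6.57 CPM. BHLH71-related, at 0 in both leaf groups, and MYB24, at 0 in Cd_L and at 3 counts in CK_L, allow no fold change in leaves.

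Among the 8, the 3 leaf-preferred unigenes had the most similar profiles. The likeness used was the root mean square difference of log2 CPM over the 12 libraries after each unigene was centred on its own mean, with a prior count of 2. It was 0.81 between MYB11-related and RAX2 and 0.94 between HLH and each of these. The closest root-preferred pair was the TGA-type bZIP with BHLH66-related, at 0.99. As these profiles are dominated by the root and leaf difference on which the table was filled, the values are a description.

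The nearest of the 48 other unigenes in the same table of main processes was also found for each. MYB11-related was nearest to agmatine deiminase, an enzyme of putrescine synthesis (difference 0.59, against a median of 2.46 over the 48). BHLH66-related was nearest to ETHYLENE-INSENSITIVE 2, a component of ethylene signalling (0.66, median 1.38), and MYB24 to WRKY9 (0.66, median 1.27). RAX2 was nearest to vacuolar iron transporter 1 (0.74, median 2.28) and BHLH71-related to ROTUNDIFOLIA like 8, a small signalling peptide (0.84, median 1.90). With a prior count of 0.5 these 5 had the same nearest unigene. The difference was then wider for MYB24, at 1.08, and for BHLH71-related, at 1.17. It was 0.57 for MYB11-related, 0.71 for BHLH66-related and 0.81 for RAX2. The other 3 changed theirs: the TGA-type bZIP, nearest to the AP2/ERF factor ORA59 at 0.90, bZIP34-like, nearest to alpha expansin EXPA11 at 0.87, and HLH, nearest to WRKY46 at 0.86.

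The same table holds 15 transcription factors of the ERF, AP2 and WRKY groups, chosen on the same contrasts. In roots 11 of the 15 could be tested between Cd_R and CK_R, and 0 were called by edgeR (0% of all), with 3 at an unadjusted p under 0.05 (4.62% of all) and 1 called by DESeq2 (0.159% of all). Their median log2 fold change was 1.00, with 7 values above and 4 below 0, beside 0.16 for the 6 tested bHLH, bZIP and MYB unigenes. In leaves 5 of the 15 could be tested between Cd_L and CK_L, with 0 called by edgeR (0% of all), 1 at an unadjusted p under 0.05 (4.25% of all), 0 called by DESeq2 (0.0784% of all) and a median of 0.01. The difference between the 2 lists was not tested.

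The study's own list of cadmium-responsive unigenes holds 9 annotated with the term DNA-binding transcription factor activity, 2 for root and 7 for leaf. 0 of the 8 unigenes described here are among these 9. edgeR called 0 of the 2 between Cd_R and CK_R, with 2 at an unadjusted p under 0.05 and log2 fold changes of 1.89 and -2.39. Between Cd_L and CK_L it tested 6 of the 7 and called 0, with 6 at an unadjusted p under 0.05 and a median log2 fold change of -1.74. DESeq2 called 2 of the 2 and 7 of the 7. That list was chosen by the study on these libraries, so these counts are not independent evidence.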

How the data were processed

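Per the labels and the study's methods, poly(A) RNA of the 12 samples was sequenced on an Illumina instrument (base calling with CASAVA 1.8, per the submitters' processing notes), clean reads of all samples were assembled de novo, and RSEM mapped reads back to unigenes. The deposited values are expected counts per unigene, made by the authors with RSEM and not normalized. They were rounded to whole numbers here. Columns were matched to samples by name, and 0 sample columns were left unused. De novo unigenes carry no genome position, and no sequence of the 8 unigenes was used here.

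Counts were analysed in edgeR 4.0.16 (TMM scaling, filterByExpr on the groups compared, quasi-likelihood F test, Benjamini-Hochberg adjustment) under R 4.3.3, on the 6 libraries of each comparison and on all 12 for the interaction. The fit was tested on simulated data. A SE is the log2 fold change divided by the square root of F. The labels' growth protocol names 3 biological replicates per treatment in 6 pots and does not tie a library to a pot. The depth of about 24 counts per CPM limits precision, and bounds use a floor of 3 counts over a group. Alternatives were relative-log size factors, library totals, no filter, a minimum of 10 counts in 3 libraries, DESeq2 1.42.0 with and without independent filtering, each library left out, CK_R replicate 3 and Cd_R replicate 1 left out together, a replicate block, all 12 libraries in one fit and calls by adjusted p alone. Leaving out each library from the bounds near 0 was added after seeing the data. All 8 unigenes are named, beside the reference unigene, the nearest unigene of the study's table to each, and other transcription factors by counts. The members and lists were chosen with earlier results of these data known.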

Additional observations from a re-analysis of the deposited data

How the results depend on the processing

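In both comparisons of cadmium with control and in the interaction, 0 of the 8 unigenes were called under any alternative run. Between CK_R and CK_L the count was 1 in edgeR, 0 in DESeq2 with and 0 without independent filtering, and 3 with all 12 libraries in one fit (HLH, bZIP34-like and MYB11-related). Between Cd_R and Cd_L it was 6, and 5 to 8 under the alternatives. Over all unigenes, the fit with all 12 libraries called 14374 higher and 10998 lower of 61242 between CK_R and CK_L. Between Cd_R and Cd_L, no filter gave 5 of the 8, and 10658 higher and 8320 lower of 121581 over all unigenes. DESeq2 gave 8 of the 8 there, and 14693 higher and 10444 lower of 118246 over all unigenes. Over all unigenes, the main edgeR fit called 0 in both comparisons of cadmium with control and in the interaction. With no filter, edgeR called 1 higher and 1 lower of 94388 between Cd_L and CK_L. DESeq2 called 60 higher and 129 lower between Cd_R and CK_R, and 23 higher and 51 lower between Cd_L and CK_L. For the interaction it called 3 and 10. Without independent filtering these were 36 and 71, 19 and 36, and 2 and 6.

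With a library left out, the sign turned for 7 values, none of them called. These log2 fold changes ranged in Cd_R against CK_R from -0.23 to 0.94 for the TGA-type bZIP, from -1.54 to 0.80 for bZIP34-like, from -0.36 to 0.39 for HLH and from -0.05 to 3.48 for BHLH71-related. In Cd_L against CK_L they ranged from -1.26 to 0.06 for the TGA-type bZIP and from -0.85 to 0.75 for MYB11-related, and in the interaction from -1.12 to 1.23 for bZIP34-like. The cause was not tested. Among the values tested, no other alternative run turned a sign.

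With library totals as the scale, the median over all unigenes (log2 fold change) was 0.14 between Cd_R and CK_R, 0.10 between Cd_L and CK_L, 0.55 between CK_R and CK_L and 0.59 between Cd_R and Cd_L, against -0.02, -0.01, 0.05 and 0.05 with TMM. The split of calls between CK_R and CK_L was then 16401 higher and 6444 lower, against 12060 and 9112, and between Cd_R and Cd_L 18396 and 6700, against 12525 and 9718.

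Libraries with the same replicate number did not deviate together in every pair (correlations of -0.351 to 0.434 in roots, -0.386 to -0.114 in leaves, 0.083 to 0.197 between CK_R and CK_L and -0.128 to 0.06 between Cd_R and Cd_L). Between CK_R and CK_L, 3 of 3 correlated best with their own number, against 1, 0 and 1 of 3 in Cd_R and CK_R, Cd_L and CK_L, and Cd_R and Cd_L, which is a hint from the data only. With the replicate number as a block, 5 of the 8 unigenes were called between Cd_R and Cd_L, 1 between CK_R and CK_L and 0 elsewhere. Of all 54423 unigenes tested between Cd_R and Cd_L, that block gave 11476 called higher and 9233 lower. Between CK_R and CK_L it gave 12088 higher and 9325 lower of 54084. About 24 counts per CPM limit what can be seen of unigenes under 1 CPM.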
